A study of Mus musculus with 12 samples.

Results

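DNA replication genes and other targets of the E2F transcription factors were followed in mouse oral tumours with and without NICD. The set holds 37 genes, chosen by name for their roles in replication and at the entry to S phase. Earlier results of these data were known when they were chosen. Under the platform's annotation 34 of them had a probe on the array, and 30 had a probe detected at a detection p under 0.05 on at least 6 of 12 arrays. These 30 are called measured here, out of 8420 measured genes in all. KHR-NICD oral tumours (6) were set against KHR oral tumours (6), 1 array per tumour, all taken after 21 days of growth in F1 mice of FVB and C57BL/6 parents. All 12 tumours share whatever KHR stands for, which the labels leave unexplained. NICD commonly denotes the intracellular domain of a Notch receptor, and neither its promoter, the receptor nor the ages of the mice are given in the sources used here. Tumours are labelled as biological replicates with no word on animals or litters, so each p-value reflects only how far these samples scatter.

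A cell copies its genome once per division. In G1 the origin recognition complex, with CDC6 and CDT1, loads the ring-shaped MCM2-7 helicase onto DNA, and in S phase the kinases CDC7 and CDK2 switch the helicase on together with CDC45 and the GINS complex. Clamp, clamp loader, polymerases, nuclease and ligase then copy the strands, while other enzymes supply nucleotides and histone chaperones rebuild chromatin. Most of these genes are switched on in late G1, when cyclin-dependent kinases release E2F factors from the retinoblastoma protein. In stratified epithelium such as that lining the mouth, dividing cells lie mainly in the basal and lowest suprabasal layers. In bulk tumour RNA, fewer dividing cells and less replication RNA per cell cannot be told apart.

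On the 12 arrays between 43.6% and 48.1% of probes were detected, median signals ran from 140 to 178, and probes averaged 33.0 to 37.4 beads. The number of arrays limits the precision, with a median standard error of 0.125 for a log2 difference over all genes. Levels below are log2 values of background-corrected, quantile-normalised signals, and differences are KHR-NICD minus KHR. Basal keratinocyte markers, among them Krt5, Krt14 and Trp63, were measured for 10 of the 10 with a probe, and their mean log2 level ran from 10.61 to 10.95 in KHR-NICD tumours and from 10.77 to 10.90 in KHR tumours. Of 12 T and NK cell markers with a probe 0 were measured. A Y-linked transcript, Eif2s3y, was detected in KHR-NICD tumours 1 and 4 and in KHR tumours 4, 5 and 6. Skeletal muscle markers had a mean log2 level of 7.16 to 8.46 in these 5 tumours and of 7.84 to 10.23 in the other 7. Beads per probe split the same way, with array means of 36.3 to 37.4 in the 5 and 33.0 to 36.1 in the 7. The part of bead number in the levels was not tested.

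The label of the set was first read against promoter sequence. RefSeq windows on GRCm38.p6, from 250 bases before to 50 bases after the start of a gene, were at hand for 31 of the 37 genes. An E2F site of 8 letters (TTTCCCGC, TTTCGCGC, TTTGCCGC or TTTGGCGC, searched on both strands) lay in the windows of 11 of these 31 genes, or 35.5%, against 2.6% of all 27025 genes with a window and 4.62% of the genes tested on the array. Its core of 7 letters (the same words without their first T, so that each longer site holds a core) lay in 20 of 31, or 64.5%, against 10.9% of all genes with a window and 18.9% of the genes tested on the array. The CCAAT box (CCAAT, both strands), a common element of cell cycle promoters, lay in 18 of 31, or 58.1%, against 41.1% of all genes with a window and 43.2% of the genes tested. A match is a description of the letters and no evidence of binding. The stretches below, 250 bases upstream of the start, are shown for 2 helicase genes with dense matches, Mcm5 and Mcm6, and for the 5 genes with an unadjusted p under 0.05 between the tumour types. Capitals mark the 7-letter cores, which run together where they overlap.
Mcm5 (chr8:75109259-75109508, plus strand): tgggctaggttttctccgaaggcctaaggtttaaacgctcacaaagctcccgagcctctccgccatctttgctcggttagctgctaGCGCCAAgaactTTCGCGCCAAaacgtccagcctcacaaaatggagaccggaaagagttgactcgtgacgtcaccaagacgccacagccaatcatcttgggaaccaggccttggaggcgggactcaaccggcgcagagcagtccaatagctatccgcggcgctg
Mcm6 (chr1:128359706-128359955, minus strand): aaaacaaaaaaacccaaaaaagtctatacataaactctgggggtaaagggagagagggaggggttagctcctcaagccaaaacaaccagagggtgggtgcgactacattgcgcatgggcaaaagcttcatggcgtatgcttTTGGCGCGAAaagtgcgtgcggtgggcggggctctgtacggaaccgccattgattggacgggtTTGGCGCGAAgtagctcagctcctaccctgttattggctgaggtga
Mcm7 (chr5:138171884-138172133, minus strand): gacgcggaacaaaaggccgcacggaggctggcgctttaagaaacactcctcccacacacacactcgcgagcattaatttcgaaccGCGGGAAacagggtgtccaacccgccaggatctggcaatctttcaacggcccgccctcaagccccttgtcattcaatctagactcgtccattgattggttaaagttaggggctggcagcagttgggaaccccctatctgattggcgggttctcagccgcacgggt
Cdt1 (chr8:122567765-122568014, plus strand): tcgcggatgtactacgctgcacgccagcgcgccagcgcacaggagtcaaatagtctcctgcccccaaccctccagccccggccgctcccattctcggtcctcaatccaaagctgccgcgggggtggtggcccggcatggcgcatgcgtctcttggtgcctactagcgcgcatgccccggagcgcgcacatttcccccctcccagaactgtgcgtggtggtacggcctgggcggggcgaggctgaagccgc
Cdc45 (chr16:18811973-18812222, minus strand): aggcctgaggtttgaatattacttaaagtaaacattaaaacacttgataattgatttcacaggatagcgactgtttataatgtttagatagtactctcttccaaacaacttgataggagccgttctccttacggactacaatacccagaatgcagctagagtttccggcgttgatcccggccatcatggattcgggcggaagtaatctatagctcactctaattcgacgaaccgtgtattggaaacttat
Pcna (chr2:132253181-132253430, minus strand): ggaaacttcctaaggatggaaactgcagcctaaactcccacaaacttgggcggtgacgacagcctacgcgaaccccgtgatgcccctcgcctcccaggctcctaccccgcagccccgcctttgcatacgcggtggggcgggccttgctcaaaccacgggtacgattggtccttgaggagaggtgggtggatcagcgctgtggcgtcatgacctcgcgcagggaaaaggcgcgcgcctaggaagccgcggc
Ccne1 (chr7:38107491-38107740, minus strand): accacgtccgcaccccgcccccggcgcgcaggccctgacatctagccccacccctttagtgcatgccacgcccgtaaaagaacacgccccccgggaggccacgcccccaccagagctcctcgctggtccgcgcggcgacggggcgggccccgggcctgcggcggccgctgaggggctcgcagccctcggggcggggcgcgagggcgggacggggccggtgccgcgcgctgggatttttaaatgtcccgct
Mcm5 and Mcm6 carried overlapping cores that read as an E2F site from either strand, and in Mcm6 such a pair occurred again nearer the start. In Mcm7 the upstream core was part of a site of 8 letters, GCGGGAAA (TTTCCCGC on the other strand), that began 165 bases before the start, and another such site, TTTCGCGC, began at base 17 counted from 1 at the start. RefSeq lists another start for Mcm7, whose window held 1 core, 113 bases before that start. Cdt1 had its site of 8 letters, TTTGGCGC, at base 33 by the same count and no core in the stretch shown. Cdc45, Pcna and Ccne1 had no core anywhere in their windows. The 5 genes of lowest p included 2 with an E2F site of 8 letters and 3 without a core. Of the 27 measured members with a window, 8, or 29.6%, had such a site and 16, or 59.3%, a core. Whether these letters go with the differences between the tumour types was not tested. The absence of these letters from a window says nothing about E2F acting elsewhere.

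Between the tumour types none of the 30 replication and E2F target genes rose or fell. By limma with Benjamini-Hochberg adjustment over 8420 genes, 0 were higher, 0 were lower and 30 did not pass, and the lowest adjusted p was 0.145, for Pcna. The same fit called 17 genes, 0.202% of those tested, with 0.095% higher and 0.107% lower. At an unadjusted p under 0.05 the set had 5 genes, 16.7% of its measured members, against 13.9% of all genes. Pcna, among these 5, passed the detection filter mainly through the KHR-NICD arrays, and among genes detected on all 12 arrays the count was 4 of 29, or 13.8%, against 15.1% of all such genes. Mcm7, Cdc45 and Pcna were on the higher side, where 6.83% of all genes stood, and Cdt1 and Ccne1 on the lower, where 7.1% stood. The median log2 difference of the 30 was 0.04, with quartiles of -0.07 and 0.15, against a median of 0.005 over all genes. Differences were positive for 18 of 30 members, or 60%, and for 51.1% of all genes. Scaling mattered for that split: with arrays centred on their medians 10 of 30 were positive, against 32.7% of all genes. In no member did the 6 KHR-NICD tumours lie wholly beyond the 6 KHR tumours, which happened for 1.57% of all genes.

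The intervals show what size of change these arrays leave room for. For 22 of the 30 genes the 95% interval of the difference lay wholly between -0.5 and 0.5 on the log2 scale, which is less than a 1.41-fold change either way. The other 8 were Mcm3, Mcm7, Cdc45, Pcna, Rfc4, Rfc5, Tyms and Ccne2. The highest upper bound, 1.55, belonged to Mcm7. A difference of 0 lay inside the interval for 25 of the 30. Each interval is that of the gene's brightest kept probe and does not cover its other probes. For Mcm6, among the 22, another of its 3 kept probes stood at 0.39 with a standard error of 0.15. That lies above the upper bound of 0.17 for Mcm6. Tk1 and Rrm2, also among the 22, had other probes at 0.22 and -0.24, with standard errors of 0.16 and 0.13.

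**Figure D1:**
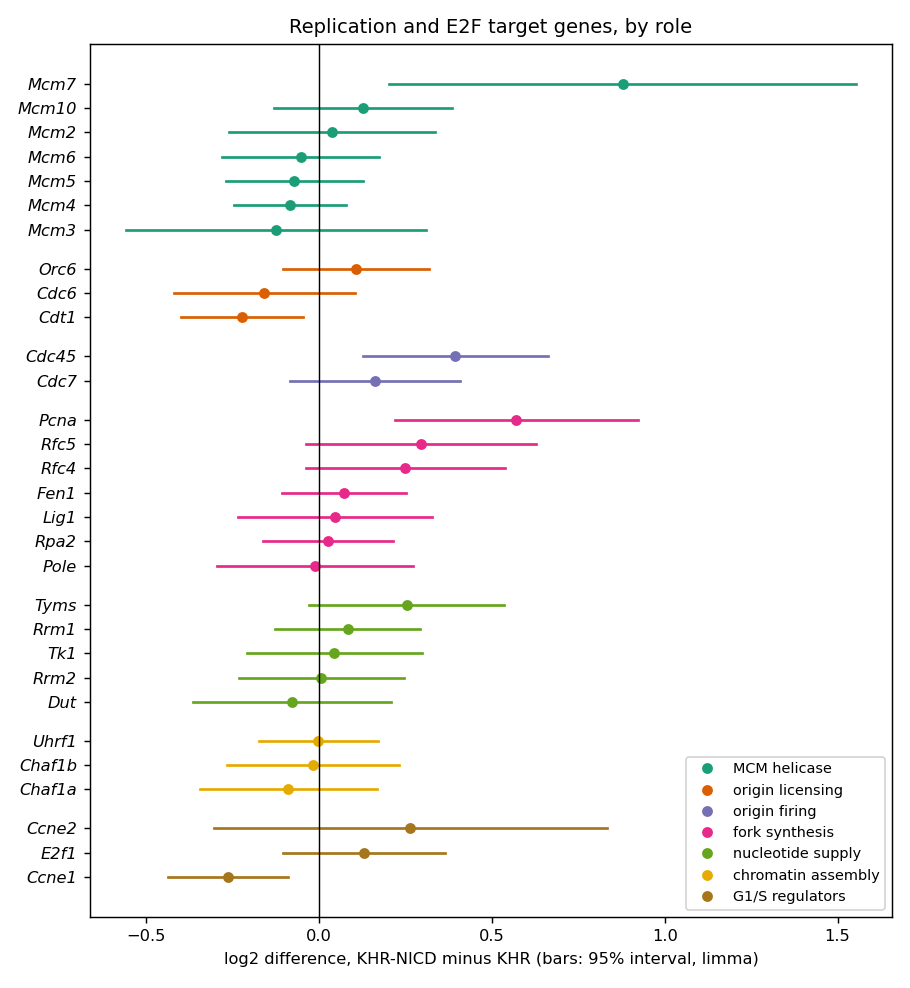
Log2 difference, KHR-NICD minus KHR, of the 30 measured genes on the horizontal axis, grouped and coloured by role down the page; points are limma estimates and bars 95% intervals. Mcm7 stands farthest to the right at 0.88 with the widest interval, Ccne1 farthest to the left at -0.26, and 25 of the 30 bars cross 0.

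The MCM helicase genes stood on both sides of 0, and a shift of the group was not tested. Of 7 measured genes (Mcm2 to Mcm7, whose products form the ring, and Mcm10, which helps to activate it) 3 had a positive difference and the median was -0.05. Mcm7 had log2 levels with a lowest, median and highest value of 8.14, 8.44 and 8.88 in KHR-NICD tumours, against 6.54, 7.68 and 8.82 in KHR tumours. All 6 KHR-NICD tumours lay above the KHR median and 1 above every KHR tumour, while KHR tumours 1 and 2 were the 2 lowest of all 12. The difference was 0.88 ± 0.31 (standard error), or 1.84-fold (limma, adjusted p = 0.229). The spread in KHR tumours, 0.81 (SD, n = 6), exceeded that of 0.29 (SD, n = 6) in KHR-NICD tumours.

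Mcm3 had the lowest difference of the helicase group, -0.12 with a standard error of 0.20. Its levels were 7.21, 7.72 and 8.01 in KHR-NICD tumours (lowest, median, highest), against 7.30, 7.87 and 8.31 in KHR tumours, and the ranges overlapped almost throughout. Mcm4 and Mcm5 stood at -0.08 and -0.07, and no tumour of either type left the range from 11.93 to 12.48 for these genes. Mcm2, Mcm6 and Mcm10 stood at 0.04, -0.05 and 0.13. The subunits of 1 ring thus ranged from -0.12 to 0.88, and Mcm7 stood apart from the other 5. Whether Mcm7 differed from its partners was not tested.

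Origin licensing had 3 measured genes of 5. Cdt1, which delivers the MCM ring to the origin and is destroyed once S phase begins, had log2 levels of 9.27, 9.36 and 9.48 in KHR-NICD tumours (lowest, median, highest), against 9.34, 9.61 and 9.76 in KHR tumours. All 6 KHR-NICD tumours lay below the KHR median and 2 below every KHR tumour, with KHR tumour 3 as the low value on the KHR side. The difference was -0.22 ± 0.08 (standard error) (limma, adjusted p = 0.241). Cdc6, the ATPase that loads the ring together with CDT1, stood at -0.16, with levels of 6.14 to 6.71 in KHR-NICD tumours and 6.50 to 6.85 in KHR tumours. Orc6, a subunit of the origin recognition complex, had levels of 10.11, 10.25 and 10.37 in KHR-NICD tumours, against 9.83, 10.20 and 10.33 in KHR tumours, a difference of 0.11 ± 0.10 (standard error). Orc1, the largest subunit of that complex, and Gmnn, which codes for the CDT1 inhibitor geminin, each had 1 probe, detected on 0 arrays.

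Of the origin firing genes only Cdc45 and Cdc7 were measured, since Gins1 and Gins2 had no probe under the annotation. Cdc45, the helicase cofactor, had log2 levels of 7.59, 7.95 and 8.18 in KHR-NICD tumours, against 7.26, 7.58 and 7.91 in KHR tumours. KHR-NICD tumours lay above every KHR tumour in 5 of 6 cases, and KHR tumour 1 was the high value on the KHR side. The difference was 0.39 ± 0.12 (standard error) (limma, adjusted p = 0.174). Cdc7, the kinase that phosphorylates the MCM ring, had levels of 8.62, 8.88 and 9.30 in KHR-NICD tumours, against 8.45, 8.77 and 8.87 in KHR tumours. Its difference was 0.16 with a standard error of 0.11, and the groups overlapped.

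Genes of the replication fork were measured in 7 of 10 cases and 6 of the 7 differences were positive. Pcna, the sliding clamp that holds polymerases on DNA, was dim and detected in 5 of 6 KHR-NICD tumours and 1 of 6 KHR tumours. Its log2 levels were 5.18, 5.51 and 6.20 in KHR-NICD tumours, against 4.70, 5.05 and 5.36 in KHR tumours, and 5 KHR-NICD tumours lay above every KHR tumour. The difference was 0.57 ± 0.16 (standard error) (limma, adjusted p = 0.145), and without background correction it was 0.17. Of the 30 measured genes it alone sat at the detection limit of 6 arrays.

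Pole, the leading-strand polymerase subunit, was the lowest of the fork genes at -0.01 with a standard error of 0.13. It had levels of 6.82, 7.17 and 7.41 in KHR-NICD tumours, against 6.85, 7.16 and 7.54 in KHR tumours. Rfc5 and Rfc4, subunits of the loader that opens the clamp, stood at 0.29 and 0.25 with standard errors of 0.15 and 0.13. Fen1, which trims Okazaki fragments, Lig1, which seals them, and Rpa2, which coats single strands, stood at 0.07, 0.05 and 0.03. Prim1, the primase subunit, was detected in 2 KHR-NICD tumours and 0 KHR tumours and was not measured. Pola1, of the same complex, was detected on 0 arrays, and Rfc3 had no probe.

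Nucleotide supply was covered by 5 genes, all measured, 4 of them with a positive difference. Tyms, which makes thymidylate, had log2 levels of 9.31, 9.47 and 9.74 in KHR-NICD tumours, against 8.88, 9.26 and 9.62 in KHR tumours. All 6 KHR-NICD tumours lay above the KHR median, but only 2 lay above every KHR tumour. The difference was 0.25 ± 0.13 (standard error) (limma, adjusted p = 0.410). Dut, which removes dUTP, had levels of 5.84, 6.28 and 6.56 in KHR-NICD tumours, against 5.88, 6.40 and 6.51 in KHR tumours, a difference of -0.08 ± 0.13 (standard error). Both subunits of ribonucleotide reductase, Rrm1 and Rrm2, stood at 0.08 and 0.01, and thymidine kinase Tk1 at 0.04.

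The 3 chromatin genes lay closest together of all roles, with differences from -0.09 to -0.0015. Uhrf1, which carries DNA methylation to the new strand, had log2 levels of 10.71, 10.77 and 10.79 in KHR-NICD tumours, against 10.50, 10.78 and 10.96 in KHR tumours. Its difference of -0.0015 had a 95% interval from -0.17 to 0.17. Chaf1a, the large subunit of the histone chaperone CAF-1, had levels of 9.59, 9.91 and 10.12 in KHR-NICD tumours, against 9.68, 10.002 and 10.21 in KHR tumours, a difference of -0.09 ± 0.12 (standard error). Its partner Chaf1b stood at -0.02.

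At the entry to S phase the 2 E cyclins, partners of CDK2, stood on opposite sides. Ccne1 had log2 levels of 7.78, 7.93 and 8.14 in KHR-NICD tumours, against 8.04, 8.23 and 8.26 in KHR tumours. KHR-NICD tumours lay below every KHR tumour in 5 of 6 cases, and KHR tumour 4 was the low value on the KHR side. The difference was -0.26 ± 0.08 (standard error) (limma, adjusted p = 0.163). Ccne2 had levels of 6.09, 6.46 and 7.08 in KHR-NICD tumours, against 5.40, 6.40 and 6.91 in KHR tumours, with a difference of 0.26 and a standard error of 0.26. Its spread was the second widest of the set, 1.68 between the lowest and the highest of the 12 tumours, against 2.34 for Mcm7. E2f1, the E2F family member that drives S phase genes and is itself one, stood at 0.13, with levels of 9.06, 9.31 and 9.59 in KHR-NICD tumours, against 8.91, 9.21 and 9.33 in KHR tumours.

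**Figure D2:**
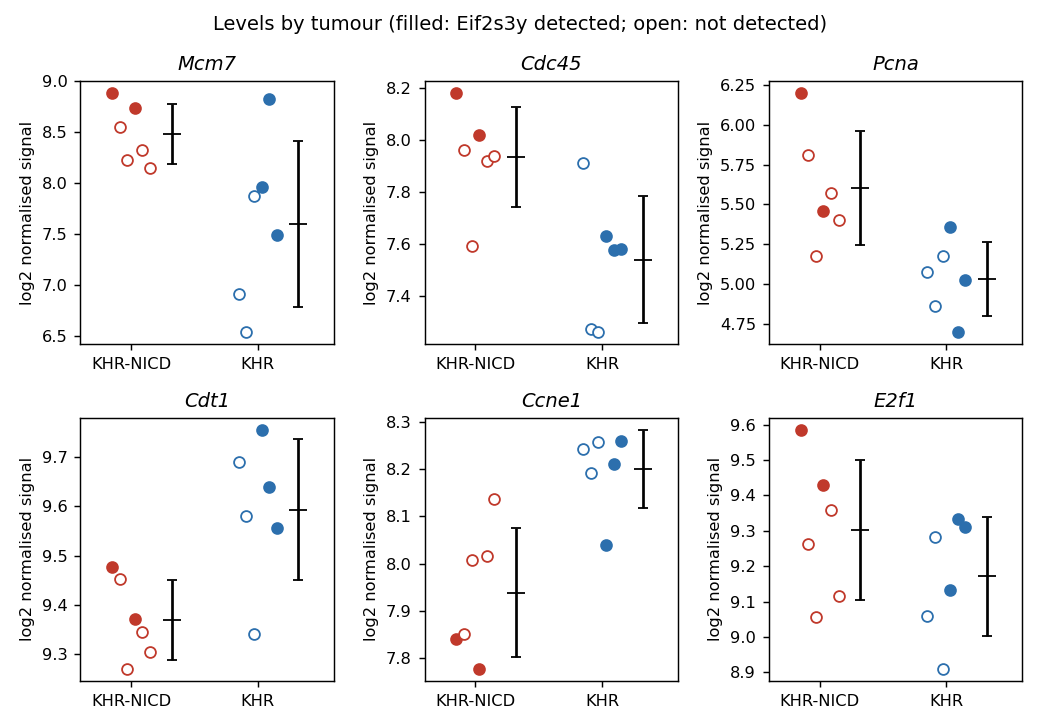
Log2 normalised signal of 6 genes (vertical axes) in each tumour, KHR-NICD left and KHR right; filled points mark tumours with Eif2s3y detected, and black marks give the mean and SD of 6 tumours. Cdc45 and Pcna have 5 of 6 KHR-NICD points above every KHR point, Ccne1 has 5 of 6 below, and Mcm7 has its widest scatter among KHR tumours.

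Several genes had more than 1 probe, and these did not always agree. The set had 58 probes, of which 38 were kept, and 6 members had over 1 kept probe. In 4 of these 6 all probes had 1 sign. Mcm6 had probes at -0.05 and -0.07 and another at 0.39 (limma, adjusted p = 0.292). Rrm2 had 1 probe at 0.01 and another at -0.24 (limma, adjusted p = 0.437). Tested probe by probe over 11044 probes, 0 member probes passed at an adjusted p under 0.05 by limma, where 0.127% of all these probes were called. At an unadjusted p under 0.05 there were 6, or 15.8% of the kept member probes, against 13.1% of all.

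Tumours of 1 type varied among themselves. Of the 30 genes, the number above their own median over the 12 tumours was 22, 17, 8, 19, 10 and 18 in KHR-NICD tumours 1 to 6, against 16, 7, 2, 17, 23 and 21 in KHR tumours 1 to 6. KHR tumour 3 was the lowest of the 12 for 15 genes, and KHR-NICD tumour 1 the highest for 10. The same counts over all genes are not given here, and whether these tumours stand out in other genes was not tested. Without KHR tumour 3 the median difference of the set was 0.007 in place of 0.04. Then 15 of its 30 genes were positive, against 50.6% of all genes. Without KHR-NICD tumour 1 the median was 0.02, and 16 of the 30 genes were positive, against 52.4% of all genes.

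**Figure D3:**
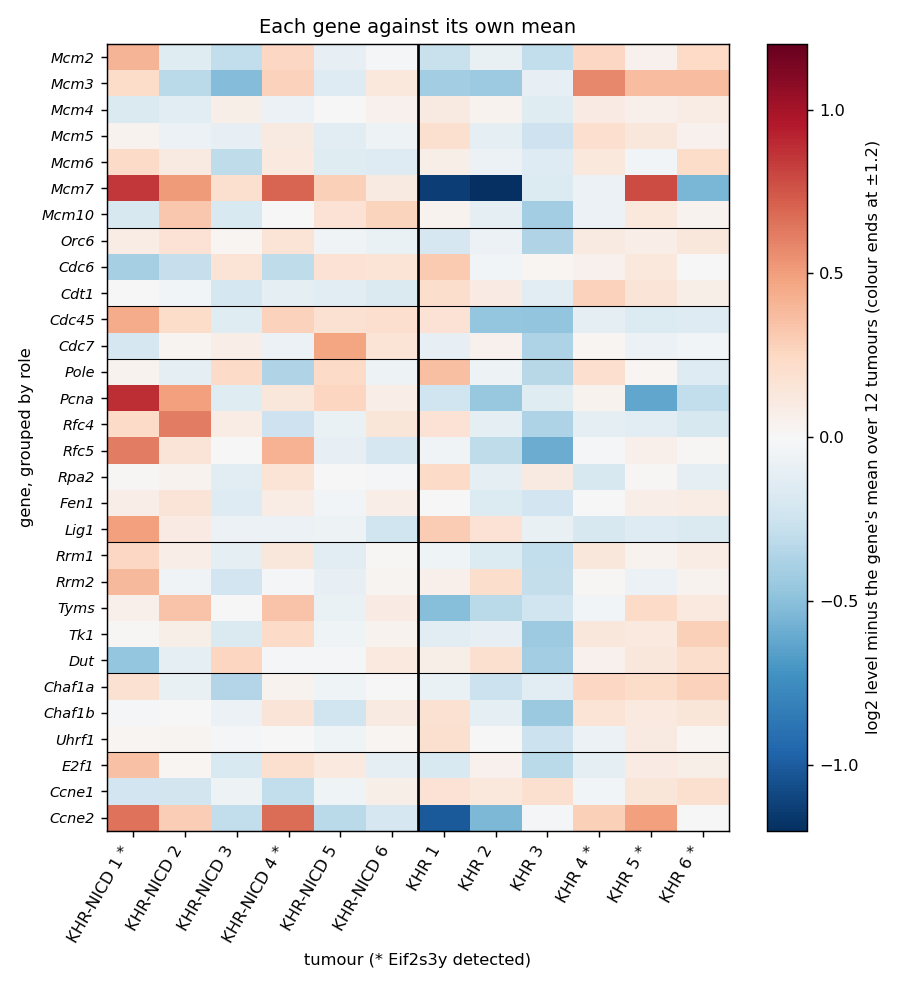
Log2 level of each of the 30 genes (rows, grouped by role) in each tumour (columns, KHR-NICD left of the line and KHR right; a star marks Eif2s3y detected), minus the gene's mean over the 12 tumours. The column of KHR tumour 3 is mostly blue, with the lowest value for 15 of 30 genes, and Mcm7 is dark blue in KHR tumours 1 and 2.

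The spread ran in part along Eif2s3y detection. Tumours with Eif2s3y had 17 to 23 of the 30 genes above their median, and those without it 2 to 18. Within KHR-NICD tumours, 11 genes lay higher in both tumours with Eif2s3y than in all without it, 36.7% of the set against 18.4% of all genes, and 3 lay lower, against 19.1% of all genes. Within KHR tumours, 9 genes lay higher in all 3 tumours with Eif2s3y than in all 3 without, 30% of the set against 17.3% of all genes, and 1, Lig1, lay lower, against 17.2% of all genes. The 9 higher ones were Mcm2, Mcm3, Orc6, Rfc5, Rrm1, Tyms, Tk1, Chaf1a and Ccne2. For Ccne2 the KHR-NICD tumours with Eif2s3y averaged 7.07 and those without it 6.28, and the KHR tumours 6.67 with it and 5.89 without it. KHR tumours with Eif2s3y are replicates 4 to 6 and those without are 1 to 3, so that Eif2s3y and replicate number cannot be told apart there.

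Skeletal muscle markers varied among the same tumours. Of 22 with a probe 19 were measured, and their mean log2 level was 8.46, 7.84, 9.63, 7.46, 9.11 and 9.03 in KHR-NICD tumours 1 to 6, against 10.23, 10.04, 9.01, 7.16, 8.36 and 7.44 in KHR tumours 1 to 6. Their summed signal ran from 8152 to 27119 in KHR-NICD tumours and from 6286 to 40347 in KHR tumours. Of the 3 not measured, Casq1 was detected on 0 arrays, Myh4 on 1 and Pygm on 2. By limma 0 of the 19 passed between the tumour types, and 0 had an unadjusted p under 0.05. Hair follicle keratins, of which 8 of 10 with a probe were measured and 0 of 10 went undetected on all arrays, also varied along Eif2s3y detection. Their mean log2 level was 6.70 to 6.80 in KHR-NICD tumours with Eif2s3y and 7.58 to 8.77 in those without, and 6.66 to 7.89 in KHR tumours with Eif2s3y and 8.95 to 10.05 in those without, so that the sets did not overlap within either type. Their summed signal ran from 1017 to 5274 in KHR-NICD tumours and from 933 to 13928 in KHR tumours. The summed signal of the basal keratinocyte markers lay between 57733 and 62998 in the 5 tumours with Eif2s3y. In the 7 without it the sum lay between 49503 and 56563. The mean log2 level of the same markers overlapped, at 10.70 to 10.81 with Eif2s3y and 10.61 to 10.95 without it. The part of keratinocyte and hair follicle cells in the levels of replication genes was not tested, and that of muscle was not tested beyond the fits that follow.

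With Eif2s3y detection as a covariate limma called 216 genes, 2.57% of those tested, and 0 members of the set. The lowest adjusted p among members was then 0.0522, for Mcm7, and 8 members had an unadjusted p under 0.05, or 26.7%, against 20.9% of all genes. Those 8 were Mcm7, Cdc45, Pcna, Cdt1 and Ccne1 with Rfc5, Tyms and Ccne2, all 3 on the higher side. With the mean of the muscle markers as covariate 6 members did so, or 20%, against 17.7% of all genes, and 0 passed the adjusted threshold, where 1.32% of all genes did.

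The difference between the tumour types was also compared in both sets. In the 5 tumours with Eif2s3y (2 KHR-NICD and 3 KHR) the members' median difference was 0.03, with 16 of 30 positive, against 49.4% of all genes. In the 7 tumours without it (4 KHR-NICD and 3 KHR) the median was 0.11, with 21 of 30 positive, against 51.9% of all genes. The interaction between tumour type and Eif2s3y detection passed in 0 members by limma, where it passed in 0.285% of all genes, and 2 members had an unadjusted p under 0.05, or 6.67%, against 17.9% of all genes. These were Lig1 (limma, adjusted p = 0.200), at 0.39 with Eif2s3y and -0.20 without it, and Cdc7 (limma, adjusted p = 0.277), at -0.11 with it and 0.33 without it. For Mcm7 the differences were 0.72 and 1.21, for Cdc45 0.50 and 0.37, for Pcna 0.80 and 0.45, for Cdt1 -0.23 and -0.19, and for Ccne1 -0.36 and -0.23, with Eif2s3y first in each pair.

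**Figure D4:**
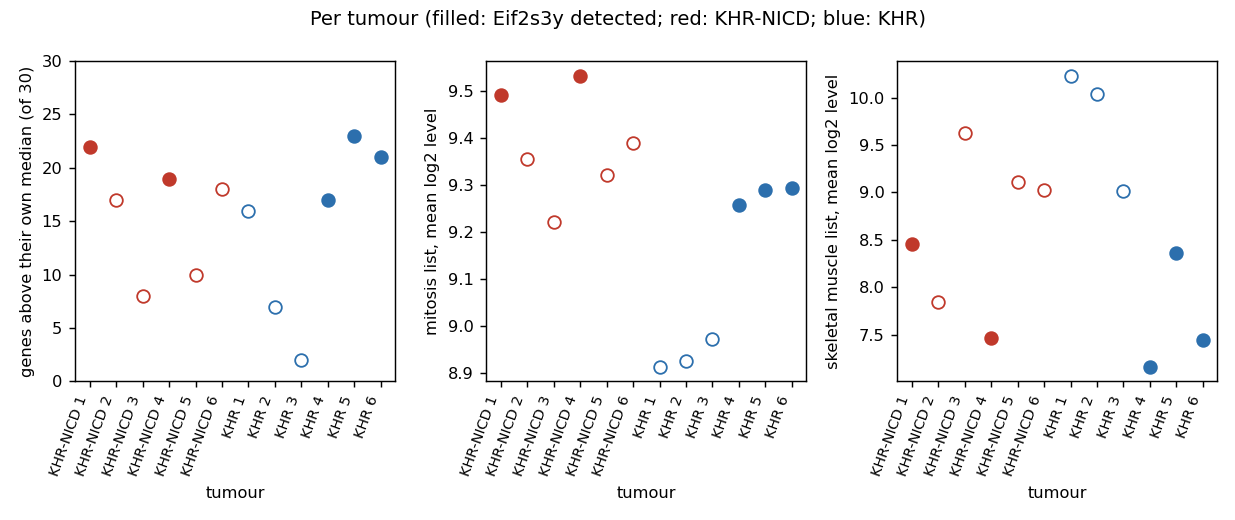
For each tumour (horizontal axes, KHR-NICD in red left of KHR in blue; filled points have Eif2s3y detected): the number of the 30 genes above their own median, the mean log2 level of the mitosis list and the mean log2 level of the skeletal muscle list. KHR tumour 3 has 2 of 30 genes above their median, and muscle levels run from 7.16 to 10.23.

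A wider list of replication and E2F genes, with the other polymerase, origin, mismatch repair and E2F family genes, had 60 entries, of which 44 were measured. By limma 0 rose, 0 fell and 44 did not pass, with 5 genes higher and 1 lower at an unadjusted p under 0.05, or 13.6% of the list, against 13.9% of all genes. The median difference was 0.09 and 37 of 44 were positive, or 84.1%, against 51.1% of all genes. With median centring 22 of 44 were positive, against 32.7% of all genes. Nasp, a chaperone of histone H1 and H3, had the smallest p. Its log2 levels were 10.77, 11.02 and 11.18 in KHR-NICD tumours, against 9.24, 10.56 and 11.25 in KHR tumours, with a difference of 0.69 and a standard error of 0.28 (limma, adjusted p = 0.297). Next came E2f3, an activating E2F, at -0.24, Blm, a helicase that unwinds recombination intermediates, at 0.33, and E2f5, a repressing E2F, at 0.18. Recql4, another helicase, followed at 0.26. The adjusted p of E2f3, Blm, E2f5 and Recql4 ran from 0.322 to 0.349 by limma. Recql4, counted among the 5 higher genes, was dim and passed the detection filter through 4 KHR-NICD and 2 KHR arrays.

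Among genes of mitosis, which follows replication, nearly all differences were positive. Of 38 listed, 24 were measured, and by limma 1 rose, 0 fell and 23 did not pass. At an unadjusted p under 0.05, 11 of 24 were higher, or 45.8%, against 6.83% of all genes, and 23 of 24 had a positive difference, with a median of 0.24. With median centring 22 of 24 were positive, against 32.7% of all genes. The list's mean log2 level ran from 9.22 to 9.53 in KHR-NICD tumours and from 8.91 to 9.29 in KHR tumours. Within KHR it lay between 9.26 and 9.29 in the 3 tumours with Eif2s3y and between 8.91 and 8.97 in the 3 without it. Within KHR-NICD it lay between 9.49 and 9.53 in the 2 tumours with Eif2s3y and between 9.22 and 9.39 in the 4 without it. Beside this, the 8 measured hair follicle keratins were all on the lower side between the tumour types, with a median difference of -0.64, and 0 had an unadjusted p under 0.05. Of 8 measured fibroblast markers 6 were positive, with a median of 0.15, and 0 passed by limma. At an unadjusted p under 0.05, 3 of these 8 were higher, or 37.5%, against 6.83% of all genes. The part of hair follicle and fibroblast cells in the mitosis differences was not tested.

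Spc25, a kinetochore protein, was the mitosis gene that rose. Its mean log2 level was 7.94 ± 0.21 in KHR-NICD tumours and 7.27 ± 0.18 in KHR tumours (SD, n = 6 each). The lowest KHR-NICD tumour, at 7.54, lay above the highest KHR tumour, at 7.46. The difference was 0.67 ± 0.11 (standard error) (limma, adjusted p = 0.0392), and leaving out a tumour in turn it passed without KHR-NICD tumour 5 alone, 1 of 12 fits, with adjusted p from 0.0196 to 0.0922. Median centring gave adjusted p = 0.0704 by limma. Nusap1 and Tpx2, which build the spindle, stood at 0.43 and 0.59, Birc5, of the chromosomal passenger complex, at 0.43 and Cdk1, the mitotic kinase, at 0.42, and none of these passed. Whether mitosis genes differed more between the tumour types than replication genes was not tested.

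**Figure D5:**
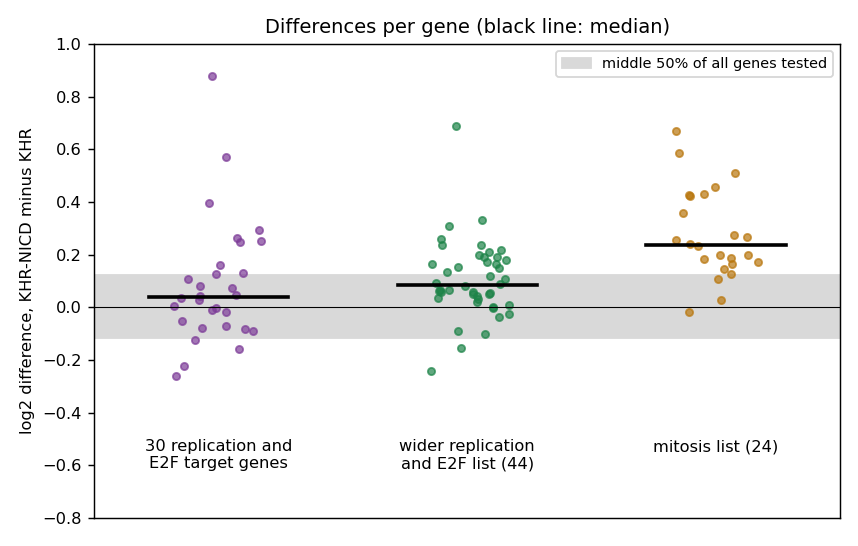
Log2 difference, KHR-NICD minus KHR (vertical axis), of each gene in the set of 30, the wider replication and E2F list (44) and the mitosis list (24), with a black line at each median and a grey band from the lower to the upper quartile of all genes tested. Medians are 0.04, 0.09 and 0.24.

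Promoters of the 2 lists also differed in their letters. The E2F site of 8 letters lay in the windows of 21 of 46 genes of the wider list, or 45.7%, and of 1 of 31 mitosis genes, or 3.23%. CCAAT boxes lay in 24 of 31 mitosis genes, or 77.4%, and in 24 of 46 of the wider list, or 52.2%. These shares describe the windows and were not set against the differences between the tumour types.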

How the data were processed

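The authors deposited a table with 4 measures per array: the mean bead intensity of each probe, its detection p-value against background, the number of beads and their standard error, per the file headers. Array medians of that signal intensity differ, so it was read as not normalised. The authors also deposited processed intensity values for the same arrays, which served as an alternative. GenomeStudio and Partek are named, without versions, per the submitters' processing notes, and the sources used here name no other step.

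Signals were background-corrected from the detection p-values (offset 16) and quantile-normalised as in neqc of limma 3.58.1 in R 4.3.3, then taken to log2, so folds of dim genes are understated. Probes took gene names from the platform annotation, updated through Entrez identifiers. Of 25697 probes, 23978 had 1 gene and 1719 did not have exactly 1 gene. Probes detected (p under 0.05) on at least 6 of 12 arrays were kept, and the brightest kept probe stood for its gene, giving 8420 genes. Groups came from the labels. KHR-NICD minus KHR was fitted with lmFit and eBayes over all genes without a block, with Benjamini-Hochberg adjustment at 0.05. On simulated data the fit was checked only for returning the differences put in, on average. How often such differences passed the threshold is not given here. Lists are described by counts and medians. Promoter windows are RefSeq's, on GRCm38.p6, and the files themselves name no build.

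Members, lists and the Eif2s3y and muscle alternatives were chosen with earlier results of these data known. Full values are given for members with an unadjusted p under 0.05 and for the highest and lowest member of each role, and of the wider and mitosis lists the 5 of smallest p were named. E2f1 was added after its values were seen. Alternatives were other normalisation, background, filters, probe summary, variance models, array weights, a replicate block, covariates, sets of tumours, an adjusted p under 0.1 and leaving out each tumour.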

Additional observations from a re-analysis of the deposited data

Results flagged for a closer look

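In 4 of 60 groups of 6 tumours (30 genes in both tumour types), 1 tumour's log2 level lay far from the other 5, with a gap above the critical share of the range, 0.625. Chance gives such a gap in about 5% of groups. KHR tumour 3 was that tumour for 3 genes. Mcm4 was at 12.24 there, against 12.42 to 12.48 in the other KHR tumours. Cdc7 was at 8.45, against 8.72 to 8.87, and Dut at 5.88, against 6.35 to 6.51. Ccne1 stood at 8.04 in KHR tumour 4, against 8.19 to 8.26 in the other KHR tumours.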

How the results depend on the processing

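In 0 of 30 fits, and in 0 probes tested singly, did a replication or E2F target gene pass the threshold. At an adjusted p under 0.1 there were 0 members in 24 of the 30 fits, the one in the report among them. In the other 6 there were 5 with the Eif2s3y covariate (Mcm7, Ccne1, Pcna, Cdc45 and Rfc5) and the same 5 with both covariates, 3 in tumours with Eif2s3y, 2 with array weights, 1 with the muscle covariate and 1, Mcm7, without KHR tumour 5. The share of all genes under 0.1 in these fits is not given here. At the threshold of 0.05 the all-gene share was 2.57% with the Eif2s3y covariate, 2.15% with both covariates and 0% in tumours with Eif2s3y. It was 1.48% with array weights, 1.32% with the muscle covariate and 0.107% without KHR tumour 5, against 0.202% in the fit of the report. The members' median ran from 0.007 to 0.07 when a tumour was left out. In those fits 15 to 20 of 30 members were positive, against 50.2% to 52.4% of all genes. Median centring, which moved the median of all genes to -0.08, gave 10 positive members and a median of -0.07. It gave the wider list 22 positive genes and a median of -0.00796. In tumours without Eif2s3y that list's median was 0.17, and the mitosis median 0.42. Mitosis genes past the threshold numbered 1, and 0 with median centring, the replicate block, only tumours with Eif2s3y or only those without. They numbered 7 with the Eif2s3y covariate, 2 with the muscle covariate, 5 with both, 3 at an adjusted p under 0.1, and 0 to 1 when a tumour was left out. Over all genes 2.57%, 1.32% and 2.15% passed in these 3 covariate fits, against 0.202% in the fit of the report. The causes were not tested. Mcm7, Cdc45, Pcna, Cdt1 and Ccne1 kept their sign in every fit run, with Mcm7 between 0.55 and 1.21, and 18 of the 30 members changed sign in at least 1 fit, none of them past the threshold. The 17 genes called over all genes became 54 with median centring (5 higher, 49 lower, against 8 and 9), 125 with array weights and 1 with the replicate block. Same-numbered tumours correlated between -0.221 and 0.454 in their deviations from the group means, and none correlated best with its own number. The labels do not say what the numbers stand for. These correlations cannot decide it, since in KHR tumours replicate number and Eif2s3y detection coincide. Whether the numbers mark a batch was not tested. With the replicate block 0 members passed, and the lowest adjusted p was 0.171 by limma. Pcna and Recql4, dim genes, rest on arrays near background.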
